A study of Mus musculus with 4 samples.

Results

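The enzymes that chemically modify drugs, dietary toxins, bile acids and steroids were followed through single cells of the mouse distal jejunum. The members were all genes whose symbol starts with Cyp1, Cyp2, Cyp3, Cyp4, Ugt1, Ugt2, Gst or Sult and that held at least 20 unique molecular identifiers (UMIs, each one captured RNA molecule) over the 4 libraries. These were 83 of the 160 features with such a symbol, out of 32286 features counted, and 41 of the 160 had no UMI at all. They comprised 4 Cyp1, 20 Cyp2, 7 Cyp3, 12 Cyp4, 22 Gst, 8 Sult, 4 Ugt1 and 6 Ugt2 symbols with 975754 UMIs together. The spelling of the symbol also took in 7 cytochromes P450 of other families (Cyp11a1, Cyp17a1, Cyp20a1, Cyp24a1, Cyp26b1, Cyp27a1 and Cyp39a1) and Gstcd, which is named for a glutathione S-transferase domain. Just inside the limit stood Ugt2b38 and Cyp4a29 with 20 UMIs and Cyp2d10 and Sult4a1 with 21, and just outside it Cyp2e1 and Cyp2j5 with 18 and Cyp3a41a with 15.

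Libraries came from 4 adult male mice, 2 Control and 2 EC-Foxc-DKO, 1 mouse each, killed 18.5 h after intestinal ischemia-reperfusion (I/R), in which the superior mesenteric artery was clamped and then released. All 4 carried floxed alleles of both transcription factor genes (Foxc1 fl/fl;Foxc2 fl/fl) and received tamoxifen by gavage. The EC-Foxc-DKO mice also carried Cdh5-CreERT2, a tamoxifen-activated Cre driven by an endothelial promoter, so that the enterocytes of both genotypes were not themselves the target of the deletion. No uninjured mouse was among these 4, so every level described here is one after I/R.

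Detoxification runs in steps. Cytochromes P450 (Cyp) in the endoplasmic reticulum oxidize a substrate with electrons passed on by the reductase Por. Transferases then attach a polar group: UDP-glucuronosyltransferases (Ugt) add glucuronic acid, glutathione S-transferases (Gst) add glutathione and sulfotransferases (Sult) add sulfate, after which transporters export the product. In the small intestine these enzymes act in enterocytes, which are born in the crypt, move up the villus as they mature and are shed at its tip, and several of the genes are controlled by ligand-activated nuclear receptors such as Nr1i2 (PXR), by Ahr or by Nfe2l2 (NRF2).

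Of 22679 barcodes, 5615 (24.8%) had at most 10% mitochondrial UMIs and were kept, between 348 in Control 2 and 2742 in EC-Foxc-DKO 1, with a median of 4254.5 to 19871 UMIs per cell. Before this filter the median mitochondrial share was 15% to 54.0% by library, highest in Control 2. Libraries shared 51 barcodes, of which 2 were among the kept cells. Each named cluster was named by the fixed marker list on which it scored highest, and its leading genes could differ from that list. Some names differ from those in the paper. Its Fibroblasts list named the enteric glia here and its Macrophage 1 list the neutrophils. Its Enteroendocrine cell 2 list named the Sprr- and Gml-led cluster, and its Telocytes/Trophocytes list the stromal and smooth muscle cells. Middle enterocytes had 0 genes of their list among their 10 leading genes. The plasma cell class joined 106 cells led by genes such as Hist1h1b, Top2a and Mki67 with 103 cells led by Igha and Jchain. Bottom enterocytes joined 681 cells led by genes such as Reg3a, Rdh7 and Reg3b with 222 cells led by Car4, Ms4a18 and Lcn2. The member Gstm3 was among the 10 leading genes of both parts. The enterocyte markers separated Bottom, Middle and Top enterocytes, but Control 2 held 40, 7 and 3 of these and EC-Foxc-DKO 2 held 344, 9 and 2, against 321, 211 and 223 in Control 1 and 198, 148 and 98 in EC-Foxc-DKO 1. Foxc1 was too sparse to check the labels (1 and 5 UMIs in the blood endothelial cells, BECs, of Control 1 and 2, and 1 and 0 in those of EC-Foxc-DKO 1 and 2). The Cre transcript was found in the EC-Foxc-DKO libraries only, with 8 and 5 UMIs over all barcodes against 0 and 0. Of these, 3 and 2 were in BECs. Levels are given as CPM, for which the UMIs of the summed cells were scaled to a total of 1000000. The chemistry reads the 3′ end, so CPM are not divided by transcript length, and they are set side by side between mice, zones and cells rather than between genes. In every list of 4 values the order is Control 1, Control 2, EC-Foxc-DKO 1, EC-Foxc-DKO 2.

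The genes stand in arrays. On mouse build GRCm38 all 83 members were found in the GENCODE annotation. Of them 8 lay on chr5:86889767-87569027 (6 Ugt2 genes with Sult1b1 and Sult1d1), 7 Cyp4f genes on chr17:32452723-32947402, 7 Gstm genes on chr3:107895821-108044894, 6 Cyp2c genes on chr19:39007019-39741054 and 5 Cyp3a genes on chr5:145436309-146113287. Neighbours are similar in sequence, and 21 members shared over 10% of the 50-base words of their last 500 transcript bases with another gene. The share was 90.02% for Gsta1 (with Gsta2 and 2 predicted genes), 100% for Ugt1a1, Ugt1a5 and Ugt1a6a, which use common last exons, 78.0% for Gstp1 (with Gstp2), 51.2% for Cyp2c68, 35.3% for Cyp3a44 (with Cyp3a41a and Cyp3a41b) and 23.0% for Gstm1, so the split of reads between these neighbours is uncertain. It was 0.0% for Cyp3a13, and 42 members shared no such word.

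Promoters of some members in the Cyp3a, Ugt2 and Gstm arrays are shown, as several differed along the enterocytes and some neighbours carry the same short word. Those of Cyp3a16, Ugt2b34, Ugt2a3, Gstm2, Gstm3, Gstm4 and Gstm6, in the same arrays, hold none of the 3 words and are not shown. Cyp3a25, which did not pass the test between zones, is shown beside the others. Each line gives the 250 bases before the RefSeq transcription start on GRCm38.p6, read 5′ to 3′ in the direction of the gene. Capitals mark the hexamer AGGTCA that nuclear receptors bind, the AHR core GCGTG and the NRF2 core TGACNNNGC, each searched on both strands. Cyp3a11, Cyp3a44 and Cyp3a25 are neighbours, Cyp3a13 lies apart from them on the same chromosome and holds none of the 3 words, Ugt2b36 and Ugt2b5 are neighbours in the Ugt2 array, and Gstm5 is from the Gstm array.
Cyp3a11, chr5:145879855-145880104, minus strand: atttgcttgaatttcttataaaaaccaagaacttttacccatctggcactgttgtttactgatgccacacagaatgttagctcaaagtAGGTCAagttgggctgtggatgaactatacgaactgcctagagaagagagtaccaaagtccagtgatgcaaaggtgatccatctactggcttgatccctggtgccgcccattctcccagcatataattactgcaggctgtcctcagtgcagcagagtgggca
Cyp3a44, chr5:145805875-145806124, minus strand: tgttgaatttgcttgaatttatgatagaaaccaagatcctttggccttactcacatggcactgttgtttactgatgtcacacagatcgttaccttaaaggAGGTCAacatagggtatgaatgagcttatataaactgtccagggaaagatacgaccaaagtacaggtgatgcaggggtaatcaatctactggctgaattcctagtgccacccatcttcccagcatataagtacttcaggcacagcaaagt
Cyp3a25, chr5:146009619-146009868, minus strand: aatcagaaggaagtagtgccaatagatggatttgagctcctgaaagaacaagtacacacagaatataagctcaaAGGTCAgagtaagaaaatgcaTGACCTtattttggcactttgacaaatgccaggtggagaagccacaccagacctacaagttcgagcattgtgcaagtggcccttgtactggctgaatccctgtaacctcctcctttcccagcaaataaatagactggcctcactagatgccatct
Cyp3a13, chr5:137921620-137921869, minus strand: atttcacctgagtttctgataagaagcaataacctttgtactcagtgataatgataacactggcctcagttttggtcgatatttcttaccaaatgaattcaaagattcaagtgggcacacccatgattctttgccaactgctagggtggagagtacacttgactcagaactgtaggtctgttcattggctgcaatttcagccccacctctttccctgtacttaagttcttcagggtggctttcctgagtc
Ugt2b36, chr5:87092556-87092805, minus strand: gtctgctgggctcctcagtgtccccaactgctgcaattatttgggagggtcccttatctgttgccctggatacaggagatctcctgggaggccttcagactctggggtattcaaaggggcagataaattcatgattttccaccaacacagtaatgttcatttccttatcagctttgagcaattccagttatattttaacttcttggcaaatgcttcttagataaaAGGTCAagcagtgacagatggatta
Ugt2b5, chr5:87140341-87140590, minus strand: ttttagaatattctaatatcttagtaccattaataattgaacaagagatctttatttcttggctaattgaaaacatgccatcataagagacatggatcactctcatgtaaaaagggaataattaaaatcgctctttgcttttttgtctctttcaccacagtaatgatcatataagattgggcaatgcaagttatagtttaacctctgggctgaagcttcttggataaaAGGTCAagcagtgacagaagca
Gstm5, chr3:107895604-107895853, plus strand: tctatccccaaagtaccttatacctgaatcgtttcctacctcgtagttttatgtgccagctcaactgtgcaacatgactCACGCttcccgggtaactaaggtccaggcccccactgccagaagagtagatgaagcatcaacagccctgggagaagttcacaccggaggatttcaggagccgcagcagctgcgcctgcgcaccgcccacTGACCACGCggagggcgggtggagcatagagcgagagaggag
The hexamer began 162 bases before the start of Cyp3a11, 150 before Cyp3a44, 176 and 155 before Cyp3a25 (the second on the other strand), 25 before Ugt2b36 and 22 before Ugt2b5. The Ugt2b36 and Ugt2b5 promoters shared a run of 24 bases around it, gataaaAGGTCAagcagtgacaga, and those of Cyp3a11 and Cyp3a44 a run of 21 bases, tggcactgttgtttactgatg. In Gstm5 the NRF2 core and one of the AHR cores overlap. Among the 72 members with a promoter in RefSeq, 14 (19.4%) held AGGTCA, against 15.8% of 27025 genes. Between the zones described below its share did not differ: 2 of 7 members called higher at the top and 4 of 14 at the bottom (28.6% each). The AHR core was in 20 (27.8%) against 30.9%, and the NRF2 core in 5 (6.94%) against 11.5%. A match is a word in the sequence and not a measured binding site.

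Position along the villus was read from landmark genes that include no member: the tip genes (such as Apoa4, Apob, Ada and Nt5e) minus the base genes (such as Reg3b, Reg3g and Plac8). Within each mouse the enterocytes were put in order by this score and divided into bottom, middle and top zones of equal size, with 251 or 252 cells per zone in Control 1, 16 or 17 in Control 2, 148 in EC-Foxc-DKO 1 and 118 or 119 in EC-Foxc-DKO 2. The zones do not stand for the same height in every mouse. By cluster the top zone held 0 Bottom, 30 Middle and 222 Top enterocytes in Control 1 and 7, 7 and 3 in Control 2. In EC-Foxc-DKO 1 it held 0, 50 and 98, and in EC-Foxc-DKO 2 108, 9 and 2. The mean score of the top zone was 2.30, 0.39, 1.99 and -0.24, and that of the bottom zone was -1.18, -1.89, -1.33 and -1.87. The top zones of Control 2 and EC-Foxc-DKO 2 thus lay nearer to the middle zone of Control 1 (0.25) than to its top zone, and 49, 12, 47 and 90 cells lay within 0.1 of a border. Cells of the top zone were also shallower, with a median of 37016 UMIs at the bottom and 13333.5 at the top of Control 1, and in the other mice falling from 33267.5 to 23234, from 34349 to 15664 and from 25930 to 19967. Since CPM is relative to each zone's own total, the part of depth in the zone differences was not tested.

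The members called higher in the top zone were P450s, and most of those called higher in the bottom zone were conjugating enzymes. Of 54 members that passed the filter on low counts (the other 29 were too sparse), 8 were higher in the top zone and 17 higher in the bottom zone at an edgeR adjusted p under 0.05. Among the 9115 genes tested 18.3% were higher at the top and 19.6% higher at the bottom (37.9% in all), so 8 of 54 is a smaller share than the background and 17 of 54 a larger one. Of 22 P450s tested, 8 were higher at the top and 3 at the bottom. With the Bottom and Top clusters as zones (2 mice) 6 of these 8 stayed called, but more P450s were called at the bottom. Those newly called were Cyp2b10, Cyp2c23, Cyp2c55, Cyp2c65, Cyp2c66, Cyp2c68, Cyp2d26, Cyp2j6, Cyp3a25, Cyp4a10 and Cyp4f14. Of all genes tested 34.2% were then called at the top and 38.5% at the bottom. Score borders common to all mice gave more at the top (3 mice) and, with a mitochondrial limit of 20% (4 mice), more at the bottom. Of 32 transferases tested edgeR called 0 higher at the top (1, Sult2b1, at an unadjusted p under 0.05, and the same gene by DESeq2) and 14 higher at the bottom, comprising 8 of 20 Gst, 4 of 5 Ugt2, 1 of 3 Ugt1 and 1 of 4 Sult. Under other settings edgeR did call transferases higher at the top. Sult2b1 was called with score borders common to all mice, with the Bottom and Top clusters as zones and without the mouse as a block. Gsto1 was called with the clusters as zones. The median log2 fold change (top minus bottom) was -1.27 over the 54 members and -0.06 over the genes tested. The counts depended on single mice: 10 and 9 members were higher at the top and at the bottom without Control 1 (8.41% and 9.42% of all genes tested), 6 and 8 without Control 2 (12.7% and 12.9%), 4 and 5 without EC-Foxc-DKO 1 (4.69% and 4.70%), and 7 and 27 without EC-Foxc-DKO 2 (25.5% and 27.3%). With score borders common to all mice, which 3 mice could fill, they were 12 and 35 (29.1% and 32.7%). The calls of Cyp3a11, Cyp3a13, Cyp3a44, Cyp4b1, Cyp4f40, Gstp3, Gstz1 and Ugt2b36 held under every alternative that gave them a value. Of 15 alternatives, Ugt2a3, Cyp2d22 and Cyp4f16 lost the call in 1, Sult6b2 in 2, Gsta4 and Cyp2s1 in 4, Gsta1 and Ugt2b5 in 5, and Gstm5 and Cyp27a1 lost it in 6 and turned direction in 1 and 2.

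**Figure D1:**
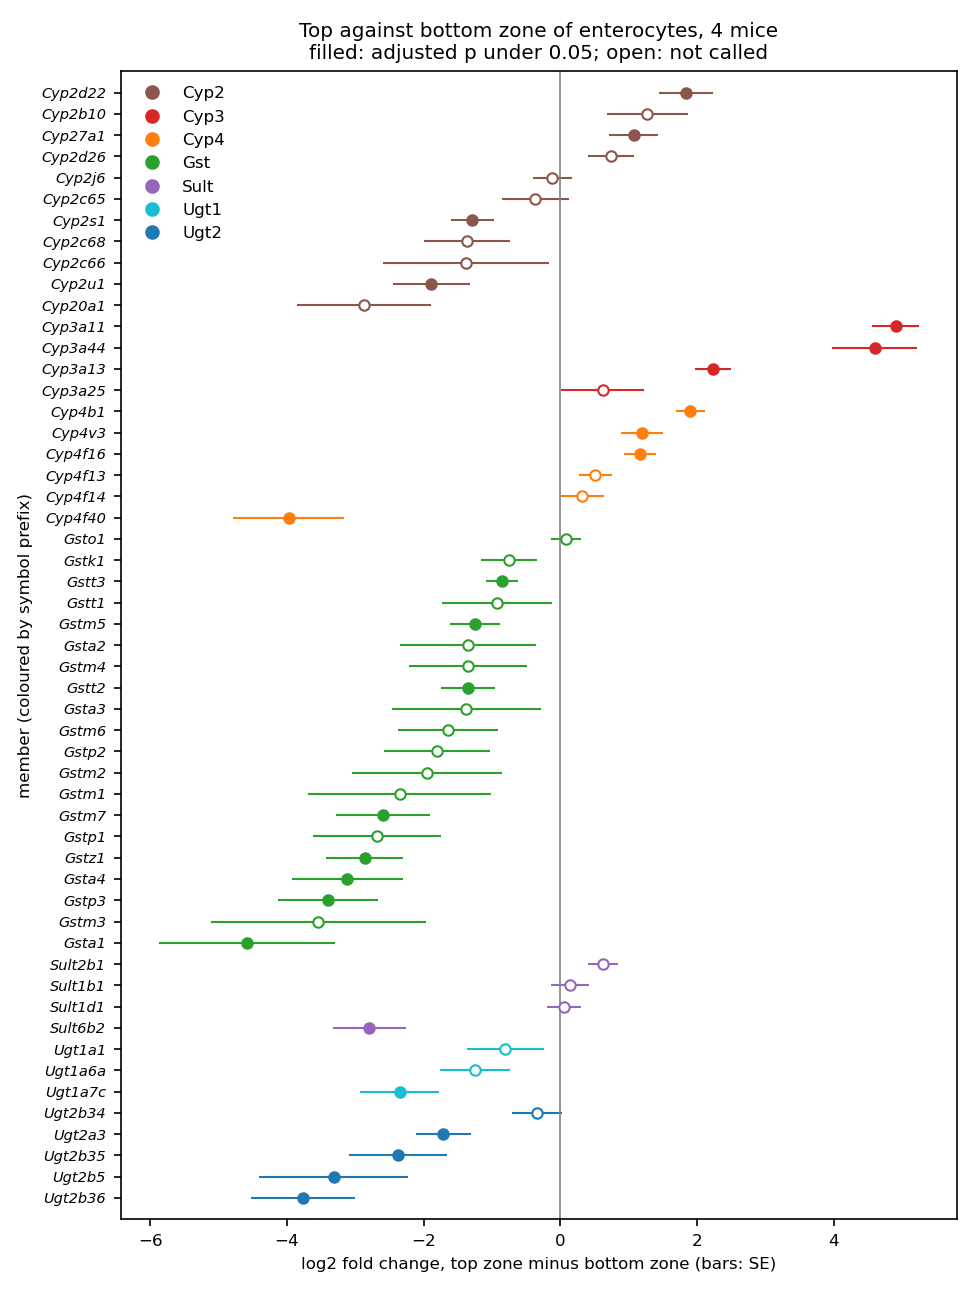
Log2 fold change between the top and the bottom zone of enterocytes for 53 members (x axis, top minus bottom, edgeR on sums of 4 mice, bars are SE), with filled points for an adjusted p under 0.05. The SE was back-calculated from the edgeR F statistic. Cyp2c55, with an SE of 4.05, is not drawn; P450s make up the filled points on the right, led by Cyp3a11 at 4.91, and Gst, Ugt and Sult members stand among those on the left, down to Gsta1 at -4.59.

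Cyp3a11, on chr5:145854426-145879964 (minus strand), is a main PXR target and the mouse counterpart of the drug-metabolizing CYP3A4. From bottom over middle to top its level was 56.3, 567 and 994 CPM in Control 1, 11.6, 43.7 and 588 in Control 2, 91.5, 1046 and 1427 in EC-Foxc-DKO 1, and 21.0, 95.7 and 676 in EC-Foxc-DKO 2. It climbed at each step in 4 of 4 mice, and every top zone stood above every bottom zone (log2 fold change 4.91 ± 0.34 SE, edgeR adjusted p = 0.00113). Cyp3a13, a further CYP3A oxidase on chr5:137892932-137921619, went the same way: 448, 934 and 1692 CPM in Control 1, 357, 466 and 1062 in Control 2, 399, 1011 and 1985 in EC-Foxc-DKO 1, and 415, 817 and 1593 in EC-Foxc-DKO 2 (2.24 ± 0.26 SE, edgeR adjusted p = 0.00354). Its bottom zones lay close together in the 4 mice, unlike those of Cyp3a11. Cyp3a44 was sparse, at 0 to 0.839 CPM in the bottom zones and 4.60, 0, 7.69 and 27.1 in the top zones, higher at the top in 3 mice and without a UMI in Control 2 (4.61 ± 0.62 SE, edgeR adjusted p = 0.00627). Its reads partly cannot be told from those of Cyp3a41a and Cyp3a41b. Cyp3a25, next to Cyp3a11, did not pass the test: its level was highest in the middle zone in Control 1 (156, 216 and 74.4 CPM) and EC-Foxc-DKO 1 (133, 218 and 65.6), and in the top zone in Control 2 (96.5, 124 and 259) and EC-Foxc-DKO 2 (30.2, 109 and 136), and an edgeR log2 fold change of 0.62 ( adjusted p = 0.428).

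Of the Cyp4 members, which act mostly on fatty acids and eicosanoids, 3 of 6 tested were higher at the top. Cyp4b1 on chr4:115624725-115647723 went from 72.4 to 180, 28.9 to 117, 91.3 to 271 and 39.4 to 119 CPM between bottom and top (1.90 ± 0.21 SE, edgeR adjusted p = 0.0034) and its middle zones, at 209, 119, 266 and 81.0 CPM, were already near the top ones in 3 mice. Cyp4f16 went from 126 to 159, 54.0 to 117, 72.0 to 123 and 73.1 to 177 CPM (1.16 ± 0.23 SE, edgeR adjusted p = 0.0132). Both rose in 4 of 4 mice, and Cyp4b1 by the wider margin. Cyp4v3, a fatty acid omega-hydroxylase, peaked in the middle zone in Control 1 (403, 825 and 426 CPM) and EC-Foxc-DKO 1 (390, 851 and 536) and at the top in Control 2 (237, 396 and 672) and EC-Foxc-DKO 2 (144, 347 and 431), and was called higher at the top (1.196 ± 0.31 SE, edgeR adjusted p = 0.0245). This call was lost in 5 of 15 alternatives, among them leaving out Control 2 (edgeR adjusted p = 0.084) or EC-Foxc-DKO 1 (edgeR adjusted p = 0.0704), and the direction turned in 1 (-0.21 with common borders and a mitochondrial limit of 20%). Cyp4f40, in the same Cyp4f array as Cyp4f16, ran the other way: 76.6, 15.1 and 0.811 CPM in Control 1, 59.8, 70.4 and 19.1 in Control 2, 76.0, 14.2 and 0.405 in EC-Foxc-DKO 1, and 83.8, 42.9 and 9.57 in EC-Foxc-DKO 2 (-3.97 ± 0.81 SE, edgeR adjusted p = 0.0137). Cyp4f14, which inactivates leukotriene B4, stood at 446 to 1243 CPM in the 12 zone sums and was not called between top and bottom (0.33, edgeR adjusted p = 0.433). With the Bottom and Top clusters as zones edgeR called it higher at the bottom.

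Among Cyp2 members 2 of 12 tested were higher at the top and 2 at the bottom. Cyp2d22 was higher at the top in 3 of 4 mice (11.9 to 35.2, 25.1 to 24.5, 13.9 to 47.0 and 6.04 to 29.1 CPM from bottom to top, 1.84 ± 0.40 SE, edgeR adjusted p = 0.0157). The other was Cyp27a1, the mitochondrial sterol 27-hydroxylase taken in by the spelling of its symbol, and its call was marginal (1.08 ± 0.35 SE, higher in 3 of 4 mice, edgeR adjusted p = 0.0499). Cyp2s1 (30.9 to 6.22, 50.2 to 16.3, 29.7 to 9.31 and 16.98 to 9.97 CPM, edgeR adjusted p = 0.0218) and Cyp2u1 (log2 fold change -1.88, lower at the top in 3 of 4 mice, edgeR adjusted p = 0.0368) were higher at the bottom. The drug-inducible Cyp2b10, a target of the receptor Nr1i3 (CAR), held 131, 271 and 72.2 CPM in Control 1 and 134, 375 and 179 in EC-Foxc-DKO 1, with its peak in the middle, and climbed to the top in Control 2 (98.4, 168 and 291) and EC-Foxc-DKO 2 (33.1, 105 and 258). Cyp2d26 had that same shape in each mouse (301, 528 and 193 CPM in Control 1, 222, 270 and 474 in Control 2, 271, 583 and 300 in EC-Foxc-DKO 1, 127, 229 and 296 in EC-Foxc-DKO 2). Neither passed the test between top and bottom (edgeR adjusted p = 0.124 and 0.115). Cyp2b10 and Cyp2d26, like Cyp3a25, Cyp4v3, Cyp4f14 and Cyp27a1, were thus highest in the middle zone in the mice with many Top enterocytes and highest in the top zone in the mice with few.

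**Figure D2:**
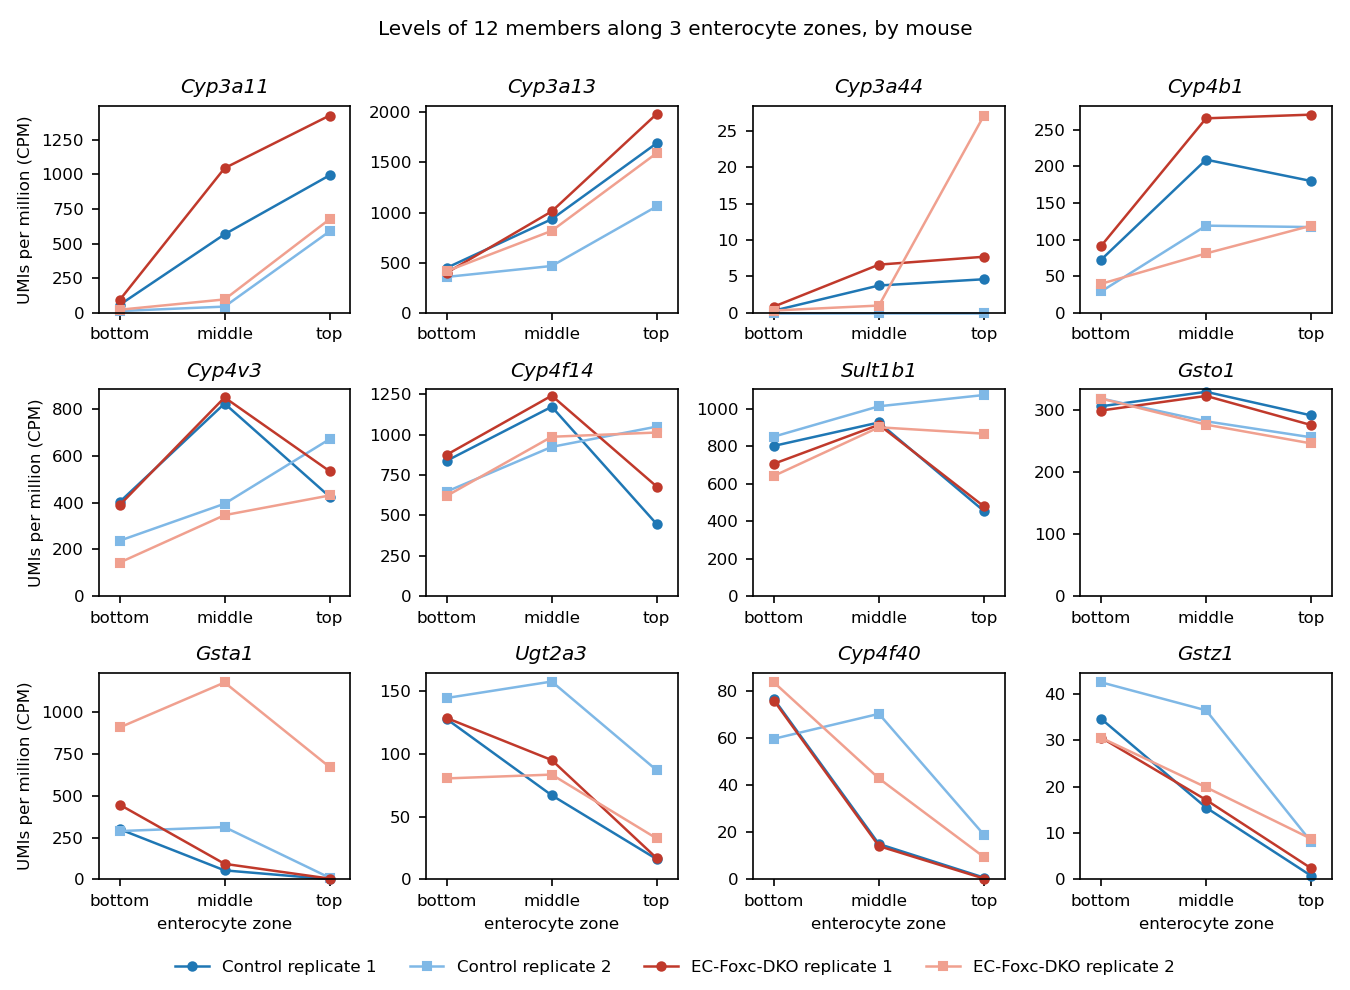
Level (CPM, y axis) of 12 members in the bottom, middle and top zones of enterocytes (x axis), 1 line per mouse. Cyp3a11 and Cyp3a13 climb to the top in every mouse, Cyp4f14 and Cyp4v3 peak in the middle in Control 1 and EC-Foxc-DKO 1, Gstz1 and Cyp4f40 fall, and Gsta1 of EC-Foxc-DKO 2 stays above 600 CPM where Control 1 and EC-Foxc-DKO 1 drop below 10. The top zone of EC-Foxc-DKO 2 consisted mostly of Bottom enterocytes.

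Of 20 glutathione S-transferases tested 8 were higher at the bottom and 12 were not called. Gstz1, which also isomerizes a product of tyrosine breakdown (chr12:87147165-87164723), fell along the zones in each mouse: 34.6, 15.5 and 0.811 CPM in Control 1, 42.5, 36.4 and 8.17 in Control 2, 30.5, 17.1 and 2.43 in EC-Foxc-DKO 1, and 30.5, 19.8 and 8.77 in EC-Foxc-DKO 2 (-2.86 ± 0.56 SE, edgeR adjusted p = 0.0123). Gstp3 fell from 15.8 to 0.27, 13.5 to 5.44, 14.6 to 0 and 18.7 to 3.19 CPM (-3.40 ± 0.73 SE, edgeR adjusted p = 0.0156). Both were lower at the top in 4 of 4 mice. Gsta4, which conjugates the lipid peroxidation product 4-hydroxynonenal, fell from 51.7 to 0.811, 59.8 to 2.72, 65.8 to 3.24 and 198 to 105 CPM (-3.11 ± 0.82 SE, edgeR adjusted p = 0.0258). Gsta1, an NRF2 target on chr9:78230656-78242684, fell from 301 over 54.4 to 1.89 CPM in Control 1 and from 447 over 93.5 to 5.26 in EC-Foxc-DKO 1, fell late in Control 2 (289, 313 and 10.9), and was highest in the middle zone in EC-Foxc-DKO 2 (909, 1178 and 673) (-4.59 ± 1.29 SE, edgeR adjusted p = 0.0314). Gstm3 showed the same division between mice, at 325, 58.8 and 2.43 CPM in Control 1, 425, 330 and 103 in Control 2, 286, 85.9 and 1.62 in EC-Foxc-DKO 1 but 773, 1559 and 1065 in EC-Foxc-DKO 2, and did not pass the test (-3.54 ± 1.57 SE, edgeR adjusted p = 0.111). Gstm5 (-1.25, edgeR adjusted p = 0.0346), Gstm7 (-2.59, 0.0267), Gstt2 (-1.35, 0.0366) and Gstt3 (-0.85, 0.0299) were the other Gst members called. Gsto1, of the omega class, was nearly level, between 246 and 329 CPM in the 12 zone sums. Its CPM was lower at the top than at the bottom in 4 of 4 mice, whereas its TMM-scaled log2 fold change was 0.08, so its direction depended on the scaling.

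Of the 5 Ugt2 genes tested, all in the array on chromosome 5, 4 were higher at the bottom. Ugt2a3 was at 128, 67.1 and 16.2 CPM in Control 1, 145, 158 and 87.1 in Control 2, 129, 95.2 and 17.002 in EC-Foxc-DKO 1, and 80.6, 83.6 and 32.7 in EC-Foxc-DKO 2, lower at the top than at the bottom in 4 of 4 mice and highest in the middle in 2 of them (-1.71 ± 0.41 SE, edgeR adjusted p = 0.0202). Ugt2b36, one of the promoters printed above, fell from 14.0 to 0.27, 19.3 to 2.72, 12.6 to 0 and 4.32 to 1.196 CPM (-3.77 ± 0.76 SE, edgeR adjusted p = 0.0132). Its neighbour Ugt2b5 fell from 24.3 to 0.27, 46.3 to 0, 24.2 to 0 and 10.9 to 7.98 CPM, at the edge of the threshold (-3.32 ± 1.09 SE, edgeR adjusted p = 0.0493), and Ugt2b35 was lower at the top in 3 of 4 mice (-2.37, edgeR adjusted p = 0.039). All 4 had their lowest sums at the top in Control 1 and EC-Foxc-DKO 1. Ugt2b34, in the same array, was not called (343, 333 and 101 CPM in Control 1, 305, 359 and 419 in Control 2, 338, 370 and 152 in EC-Foxc-DKO 1, 347, 433 and 333 in EC-Foxc-DKO 2, edgeR adjusted p = 0.476). The Ugt1 genes, on chromosome 1, were sparse: Ugt1a1, the bilirubin-conjugating enzyme, was at 8.17, 13.1, 7.67 and 1.77 CPM over the enterocytes, and of the 3 tested Ugt1a7c was called (-2.35, edgeR adjusted p = 0.0214).

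Most sulfotransferases did not pass the test. Sult1b1, the phenol and thyroid hormone sulfotransferase at the end of the Ugt2 array, stood at 455 to 1075 CPM in the 12 sums and Sult1d1, which acts on catecholamines, at 283 to 641, with log2 fold changes of 0.14 (edgeR adjusted p = 0.705) and 0.05. Sult2b1, the cholesterol sulfotransferase, was at 284 to 497 CPM (0.62, edgeR adjusted p = 0.063). Only Sult6b2 of the 4 tested passed, and it fell from 7.84 to 0.811, 3.86 to 0, 6.21 to 0 and 29.4 to 5.18 CPM (-2.79 ± 0.53 SE, edgeR adjusted p = 0.0115).

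**Figure D3:**
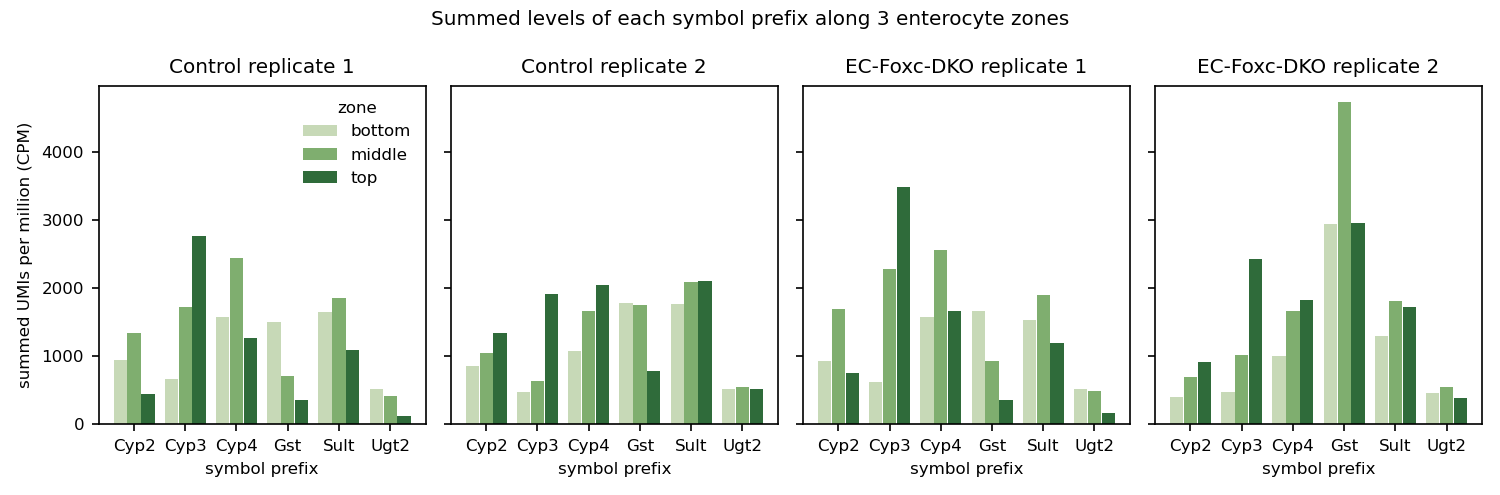
Summed CPM (y axis, from 0) of all members of each symbol prefix in the bottom, middle and top zones, 1 panel per mouse. The Cyp3 sum climbs in each mouse, from 662 to 2767 CPM in Control 1, and the Gst sum falls from 1496 to 349.6 CPM there but stays between 2939 and 4739 CPM in EC-Foxc-DKO 2.

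Summed by prefix, the Cyp3 genes climbed from 662 over 1722 to 2767 CPM in Control 1, from 465 over 634 to 1908 in Control 2, from 625 over 2284 to 3487 in EC-Foxc-DKO 1 and from 467 over 1024 to 2434 in EC-Foxc-DKO 2. The Gst sum went from 1496 to 349.6, from 1775 to 787 and from 1659 to 356 CPM in the first 3 mice and stayed at 2939, 4739 and 2958 in EC-Foxc-DKO 2. The top zone of EC-Foxc-DKO 2 held 108 Bottom, 9 Middle and 2 Top enterocytes, so it does not show the level at the villus top. At the top zone the Cyp3 sum exceeded the Gst sum in Control 1, Control 2 and EC-Foxc-DKO 1, and not in EC-Foxc-DKO 2. These are UMI counts over unlike sets of 7 and 22 members, so the order does not rank the 2 families. The zone in which the 54 tested members were highest also differed between mice: bottom, middle and top held the peaks of 36, 14 and 4 members in Control 1 and of 30, 18 and 6 in EC-Foxc-DKO 1, but of 18, 20 and 16 in Control 2 and of 15, 21 and 18 in EC-Foxc-DKO 2.

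Genes that serve these enzymes were read from 4 lists of regulators, electron donors and cosubstrate supply, efflux transporters and other detoxifying enzymes. Por, the reductase that feeds electrons to the P450s, was higher at the top like the Cyp3a genes: 134, 184 and 450 CPM in Control 1, 94.6, 87.4 and 218 in Control 2, 122, 173 and 421 in EC-Foxc-DKO 1, and 149, 151 and 275 in EC-Foxc-DKO 2 (1.71, edgeR adjusted p = 0.00734). Gsr, which regenerates glutathione, was lower at the top like the Gst genes, going from 112 to 4.33, 205 to 35.4, 134 to 7.29 and 346 to 219 CPM between bottom and top (-2.70, edgeR adjusted p = 0.0251). Gclm, a subunit of the enzyme that limits glutathione synthesis, was higher at the top (1.05, edgeR adjusted p = 0.0191), and of 12 genes in this list 2 were higher at the top and 1 at the bottom, with a median log2 fold change of -0.16.

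Among 11 of 12 regulators tested, 2 were higher at the top and 2 at the bottom, with a median of 0.21. Ahr, the receptor for dioxins and dietary indoles, went from 4.61 to 11.6, 3.86 to 8.17, 5.37 to 34.8 and 3.45 to 5.18 CPM (1.93, edgeR adjusted p = 0.0175). Hnf4a, an enterocyte differentiation factor, was higher at the top in 3 mice and not in EC-Foxc-DKO 2 (133 to 631, 129 to 210, 123 to 517 and 180 to 165 CPM, 1.54, edgeR adjusted p = 0.0411). Nfe2l2 was lower at the top in 4 of 4 mice (296 to 84.1, 336 to 256, 332 to 113 and 227 to 96.5 CPM, -0.96, edgeR adjusted p = 0.028), as was the bile acid receptor Nr1h4 (-1.89, edgeR adjusted p = 0.0105). The xenobiotic receptor Nr1i2 showed little difference (0.21, edgeR adjusted p = 0.476). Of 7 efflux transporters 4 were tested, with a median of 0.30, and 1 was called, Abcg2 (BCRP), higher at the top (0.82, edgeR adjusted p = 0.0272). Of 24 other detoxifying enzymes 22 were tested, with a median of -1.68: Ephx2 (1.80, edgeR adjusted p = 0.00596) and Nat2 (1.04) were higher at the top, while the carboxylesterases Ces1d (-4.52), Ces1e (-4.62) and Ces1f (-4.06) with Fmo4 (-1.86), Akr1c13 (-2.94) and Mgst3 (-1.16) were higher at the bottom.

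Outside the enterocytes, levels were set side by side over 18 cell classes as a description, since the classes come from clusters of these same cells. Of 73 members with at least 20 UMIs in kept cells, 52 were highest in an epithelial class, 37 of them in enterocytes (19 in Bottom, 13 in Middle and 5 in Top enterocytes), and 21 were highest outside the epithelium: 8 in enteric glia, 6 in stromal and smooth muscle cells, 4 in neutrophils, 2 in BECs and 1 in the macrophages led by C1q genes. Free RNA gives UMIs in cells that do not express a gene, so each level was read beside that of 7 abundant enterocyte transcripts in the same cells (Reg3b, Reg3g, Fabp1, Fabp2, Apoa1, Apoa4 and Sis). In 1 mouse or another these reached 11.9% of their enterocyte level in glia (EC-Foxc-DKO 1), 36.3% in the C1q macrophages and 29.9% in neutrophils (Control 1). By a criterion chosen after the values were seen (over 5 times the level that this list predicts, in every mouse with 10 cells, and 20 UMIs), 24 members stood above free RNA in at least 1 non-epithelial class. They numbered 10 in BECs, 10 in glia, 9 in stromal cells, 8 in the macrophages led by Ccl7 and Ccl2 (chemokine-led macrophages), 4 each in CD8+ T cells and plasma cells, 2 in B cells and 1 each in C1q macrophages and neutrophils.

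**Figure D4:**
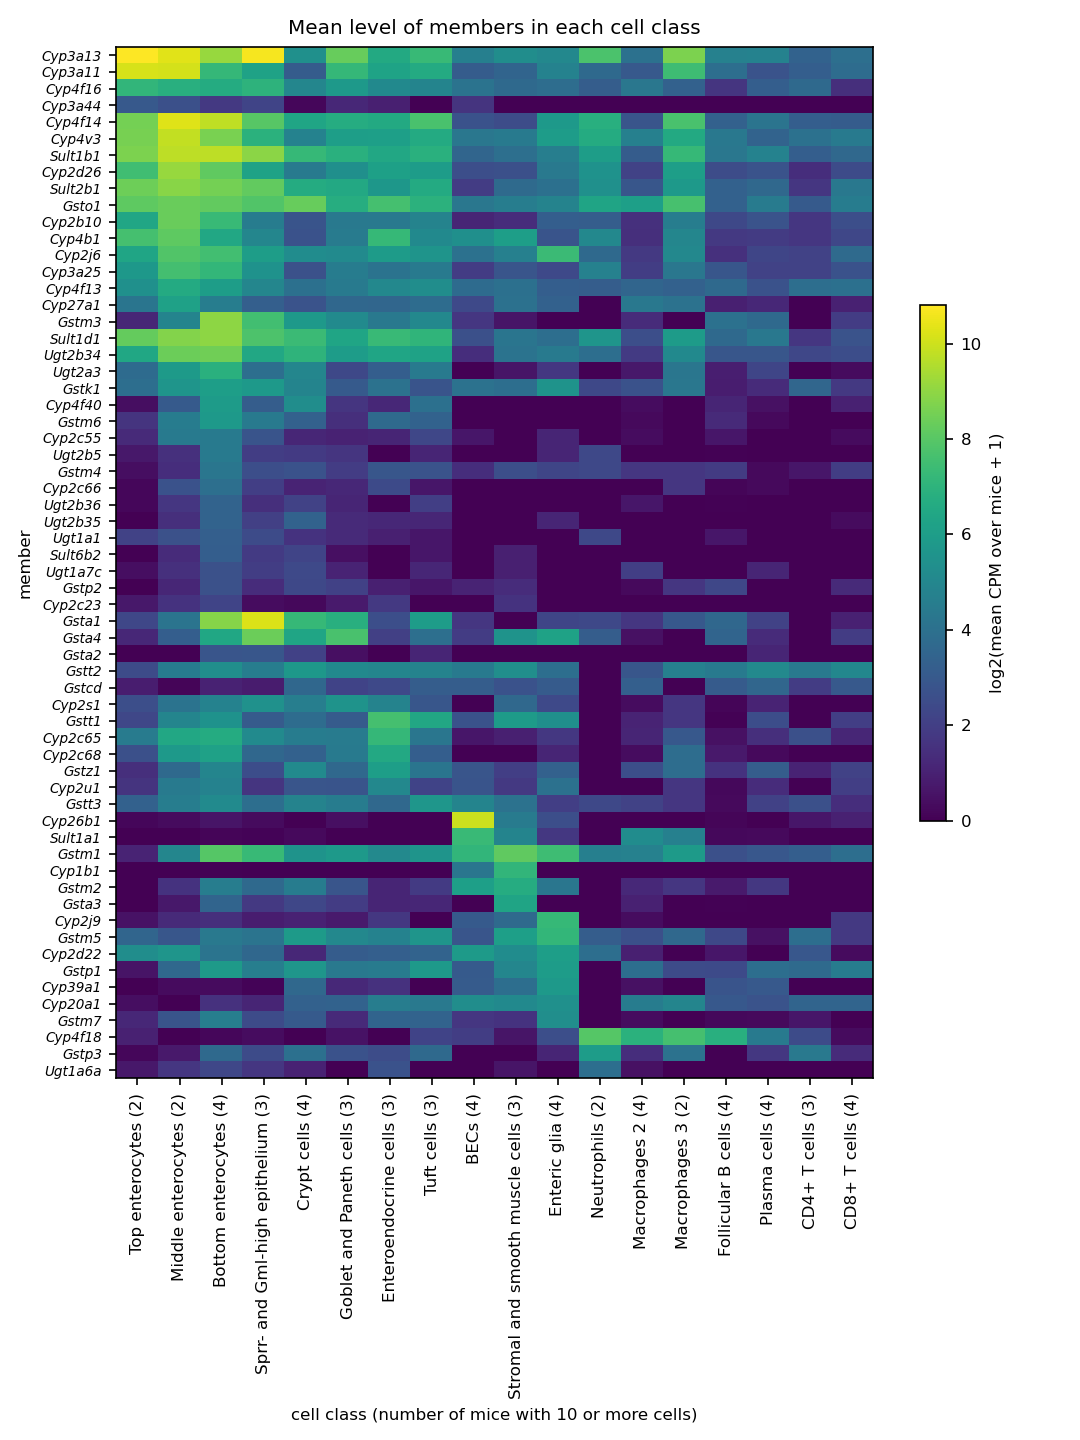
Mean level over mice, log2(CPM + 1), of members (rows) in 18 cell classes (columns). Most rows are brightest in the enterocyte columns, and Cyp26b1 in BECs, Cyp2j9 in glia, Cyp1b1 in stromal cells and Cyp4f18 in neutrophils, macrophages and B cells stand apart from them.

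Endothelial cells held Cyp26b1, the retinoic acid hydroxylase on chr6:84571414-84593908. Its level in BECs was 1197, 1391, 889 and 442 CPM (178, 312, 383 and 52 UMIs). It had a UMI in 125 of 171 BECs (73.1%, exact binomial 95% interval 65.8 to 79.6%, median 4254 UMIs per cell) and in 2 of 1378 B cells (0.145%, median 3246.5 UMIs). With each cell thinned to 1000 UMIs the shares were 51.9% and 0.0349%. The few lymphatic endothelial cells (5, 10 and 3 cells, none in EC-Foxc-DKO 2) also held it at 413, 1051 and 834 CPM, and their Cyp4b1 was at 505, 1258 and 889 CPM, against 60.5, 40.1, 30.2 and 34.0 in BECs. The phenol sulfotransferase Sult1a1 was at 101, 285, 142 and 110 CPM in BECs, with a UMI in 38.0% of them and in 0.145% of B cells.

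Glia and stromal cells held another set. In glia Cyp2j9, an arachidonic acid hydroxylase, was at 96.2, 170, 172 and 169 CPM, with a UMI in 44 of 92 cells (47.8%, median 4232 UMIs) and in 0 of 1378 B cells, a count that limits the share of such cells with a UMI to 0.218% by counting error alone (1204 of these B cells were from EC-Foxc-DKO 1). Glia also held Cyp2j6 (156, 130, 210 and 153 CPM), Gstm5 (144, 130, 143 and 153) and the oxysterol 7-alpha-hydroxylase Cyp39a1 (36.1, 120, 47.8 and 15.3). The first 3 were much alike in the 4 mice, and Cyp39a1 varied most. In stromal cells, of which EC-Foxc-DKO 2 had 3 and is left out, Gstm1 was at 237, 348 and 274 CPM, Gstm2 at 83.6, 117 and 111, and Cyp1b1, an oxidase of estrogens and polycyclic hydrocarbons, at 0, 251 and 157. Cyp1b1 had a UMI in 37.5% of stromal cells and in 0 of 1378 B cells. By the free RNA criterion it did not pass in stromal cells, being at 0 in Control 1, and it passed in BECs. Gstm1 in BECs was at 101, 205, 128 and 110 CPM and in glia at 180, 281, 153 and 92.0, beside 88.2, 165 and 122 in the Bottom enterocytes of the first 3 mice. In EC-Foxc-DKO 2 it was far higher, at 619 CPM over all enterocytes, which were nearly all Bottom enterocytes. The mean of the 4 mice in Bottom enterocytes was 250 CPM.

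In blood-derived cells the leukotriene-metabolizing Cyp4f18 (chr8:71988482-72009626) stood out: 144, 114, 147 and 64.8 CPM in the chemokine-led macrophages, 134, 63.0, 110 and 138 in B cells, and 298 and 196 in the neutrophils of Control 1 and EC-Foxc-DKO 1. It was at 0, 0, 0.978 and 0 CPM in CD8+ T cells and at 0, 0, 0.398 and 0.224 in Bottom enterocytes. A UMI was found in 47.7% of these macrophages, 44.6% of neutrophils and 30.8% of B cells, against 0.243% of CD8+ T cells and 0.443% of Bottom enterocytes, although the latter were deeper (median 31467 UMIs). Its levels over 60 sums of class and mouse correlated with no other member above a Pearson r of 0.052. Gsto1 was at 63.9, 67.1, 81.2 and 58.6 CPM in the chemokine-led macrophages and 27.3, 14.2, 24.5 and 24.4 in CD8+ T cells. Gstt2 in CD8+ T cells was at 21.2, 42.6, 44.0 and 16.3 CPM. The level of Cyp3a13 in the C1q macrophages (113 and 701 CPM) moved with their free RNA list (8.99% and 36.3% of the enterocyte level), and its own part in these cells was not tested.

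Within the epithelium, crypt cells held little of the Cyp3a genes, with Cyp3a13 at 82.4, 11.7, 25.5 and 46.01 CPM and Cyp3a11 at 24.2, 0, 2.96 and 3.73, but as much Gsto1 as the enterocytes (311, 336, 319 and 301 CPM against 311, 289, 302 and 284). Enteroendocrine cells of the 3 mice with at least 10 of them held Gstt1 at 210, 160 and 221 CPM, with a UMI in 62.3% of cells against 0.0726% of B cells, and Cyp2c65 at 133, 180 and 125. In goblet and Paneth cells Gsta4 was at 227, 157 and 241 CPM. A cluster led by Sprr and Gml genes, with 63, 2, 33 and 177 cells, held Cyp3a13 at 1806, 1696 and 1375 CPM in the 3 mice with enough cells, near the Top enterocytes of Control 1 and EC-Foxc-DKO 1 (1629 and 1962), but Cyp3a11 at 62.2, 73.5 and 87.6 against 915 and 1348 there. The pair of Cyp3a genes that rose together along the zones thus came apart in this cluster. Its Gsta1 was at 343, 573 and 2737 CPM, highest in EC-Foxc-DKO 2, which also gave most of its cells. Over the 60 sums pairs of members with like levels included Sult1b1 with Sult2b1 (r = 0.90), Cyp3a11 with Cyp2b10 (0.89), Cyp2c65 with Cyp2c68 (0.87), Cyp4f40 with Gstm6 (0.87) and Gsta1 with Gstm3 (0.85), correlations over sums that share libraries and depth.

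The comparison of the genotypes asked whether loss of Foxc1 and Foxc2 in the endothelium went with other levels of these enzymes. No member passed. In all enterocytes together 0 of 58 tested were called at an edgeR adjusted p under 0.05, as were 0.0% of the 10266 genes tested. 4 members had an unadjusted p under 0.05, as did 116 genes higher and 48 lower in the EC-Foxc-DKO mice of all those tested, and DESeq2 called 0 members. With 2 mice against 2 an exact permutation test cannot go below p = 0.3333, and on simulated data edgeR recovered 56% of log2 changes of 2 and 4% of log2 changes of 1 in this comparison, so smaller differences were mostly not detectable. Of the 58 members 12 (20.7%) had control and EC-Foxc-DKO values that did not overlap, against 27.4% of 9021 genes with at least 100 UMIs.

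The 5 members with the lowest p-values were Gsta1, Cyp3a44, Gstm5, Gsta4 and Cyp2c55, and in 2 of them, Gsta1 and Gsta4, a single mouse stood far above the rest. Gsta1 was at 167 and 218 CPM in Control and at 245 and 935 in EC-Foxc-DKO enterocytes (log2 fold change 1.69 ± 0.57 SE, unadjusted p = 0.0199, edgeR adjusted p = 0.9999). Gsta4 was at 29.3 and 44.7 against 41.0 and 184 CPM (1.71, unadjusted p = 0.031 by edgeR), and Gstm3, with a higher p, was at 180 and 304 against 165 and 1121. In each of these 3 it was EC-Foxc-DKO 2 that was high, while EC-Foxc-DKO 1 lay within or next to the Control range. The Gst sum over the enterocytes was 1038, 1487, 1163 and 3555 CPM. EC-Foxc-DKO 2 was the highest of the 4 mice for 17 of the 58 members and the lowest for 26. These counts were taken without the matching share over all genes, so they do not set the members apart from other genes. It was also the mouse with 9 Middle and 2 Top enterocytes and most of the Sprr- and Gml-led cells, and the part of that cell makeup in its Gst levels was not tested. Without EC-Foxc-DKO 1, where EC-Foxc-DKO 2 stands alone against the controls and is assumed to vary like them, 7 of the members were called higher, against 0.535% of 10477 genes: Gsta1, Gsta3, Gsta4, Gstm1, Gstm3, Gstm4 and Sult6b2.

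The other members with low p-values were, like Gsta1, higher in both EC-Foxc-DKO mice than in both Control mice. Gstm5 was at 12.3 and 13.1 CPM against 19.3 and 20.7 (0.72, unadjusted p = 0.0299 by edgeR), Cyp3a44 at 2.18 and 0 against 4.08 and 7.95 (1.81, unadjusted p = 0.0295 by edgeR) and Cyp2c55 at 16.6 and 9.25 against 17.6 and 35.9 (0.99, unadjusted p = 0.054 by edgeR). Both EC-Foxc-DKO mice stood above both Control mice in these 3, though for Cyp2c55 EC-Foxc-DKO 1 lay just above Control 1. The edgeR adjusted p of these 3 was 0.9999 each. The same order held for Cyp3a13, at 822 and 591 against 912 and 878 CPM, while Gsto1, at 311 and 289 against 302 and 284, overlapped. The rest of the 12 members without overlap lay lower in both EC-Foxc-DKO mice than in both Control mice. These were Cyp3a25, Cyp2c68, Gstt1, Gstz1, Ugt1a1, Ugt1a6a and Ugt2b36, more than had the opposite order. Cyp2c68, for example, was at 64.5 and 96.3 against 60.1 and 23.7 CPM.

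**Figure D5:**
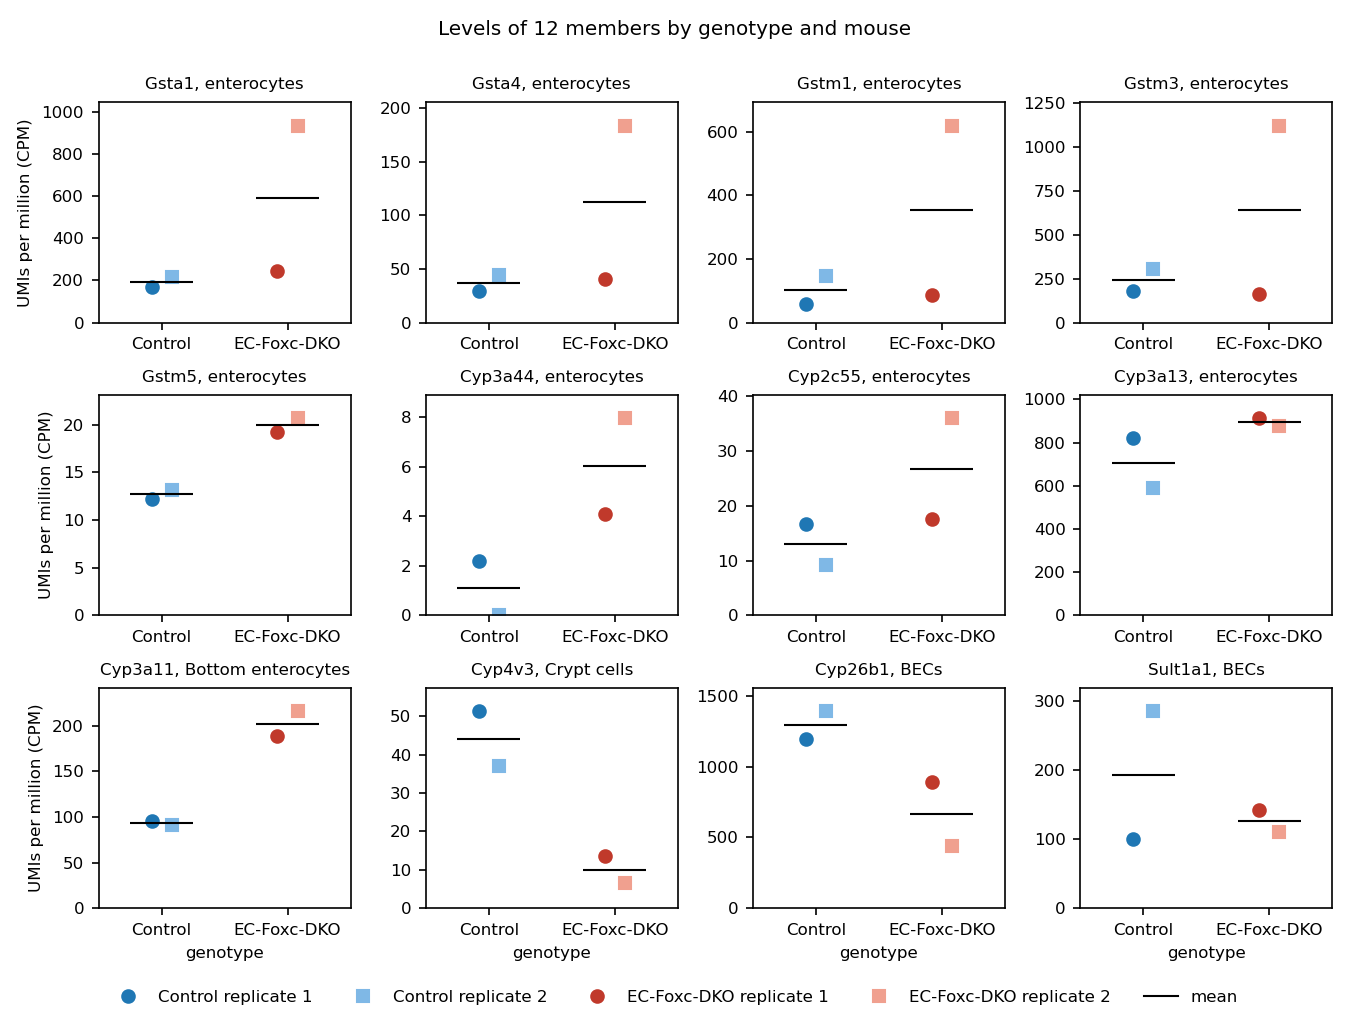
Level (CPM, y axis) of 12 members by genotype (x axis), in the cell class named above each panel, with 1 dot per mouse and a line at the mean of 2 mice. EC-Foxc-DKO 2 is alone at the top for Gsta1, Gsta4, Gstm1 and Gstm3 in enterocytes, and both EC-Foxc-DKO mice stand below both Control mice for Cyp4v3 in crypt cells and Cyp26b1 in BECs.

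Within single classes 0 members were called by edgeR in any of 8 further comparisons, where 0.0% of genes were called apart from 1.0% of 2895 in plasma cells (0.173% higher and 0.829% lower in the EC-Foxc-DKO mice). In Bottom enterocytes 58 members were tested and 7 had an unadjusted p under 0.05, as did 198 genes higher and 99 lower of 9917. DESeq2 called 1 member. This was Cyp3a11, at 96.1 and 90.8 CPM for Control against 189 and 216 for EC-Foxc-DKO (1.15 ± 0.21 SE, edgeR adjusted p = 0.756, DESeq2 adjusted p = 0.0304). Its edgeR log2 fold change was 1.29 without EC-Foxc-DKO 1 and 0.99 without EC-Foxc-DKO 2, fits that each leave 1 EC-Foxc-DKO mouse. In the same cells Gsta1 was at 266 and 254 against 396 and 948 CPM (1.43, unadjusted p = 0.0070 by edgeR). As the Cyp3a11 level depends steeply on height, and EC-Foxc-DKO 2 had nearly all its enterocytes in this class, the part of villus height in this difference was not tested.

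In crypt cells 41 members were tested, 3 had an unadjusted p under 0.05 and DESeq2 called 0. Of 9276 genes tested, 103 higher and 126 lower had such a p. Cyp4v3 was at 51.3 and 36.9 against 13.7 and 6.48 CPM (-2.23 ± 0.44 SE, unadjusted p = 0.0015 by edgeR) and Sult1d1 at 232 and 189 against 137 and 107 (-0.79, unadjusted p = 0.023 by edgeR). Both EC-Foxc-DKO mice lay below both Control mice, but the edgeR adjusted p of these 2 was 0.9999 each. Crypt cells of the 4 mice numbered 20, 15, 38 and 144. The share of all genes whose genotypes do not overlap was not counted in crypt cells or BECs, so such an order says little there. In BECs, a cell type in which the Cre is active, 5 members were tested and DESeq2 called 0. At an unadjusted p under 0.05 stood 58 genes higher and 39 lower of 3487, among them 1 member. That 1 was Cyp26b1, for which both EC-Foxc-DKO mice (889 and 442 CPM) lay below both Control mice (1197 and 1391), with a log2 fold change of -0.94 ± 0.34 SE (unadjusted p = 0.022, edgeR adjusted p = 0.999), and it was called without EC-Foxc-DKO 1 alone (-1.61, edgeR adjusted p = 0.0478). BECs of the 4 mice numbered 31, 29, 87 and 24. Sult1a1 overlapped between genotypes (-0.63).

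In the chemokine-led macrophages 10 members were tested and DESeq2 called 0. At an unadjusted p under 0.05 stood 56 genes higher and 89 lower of 6877, among them 1 member. This was the sterol hydroxylase Cyp27a1, at 18.0 and 43.8 against 12.6 and 3.09 CPM (-1.74, unadjusted p = 0.045 by edgeR), from 2 to 16 UMIs per mouse. In enteric glia (4 members), plasma cells (2), CD8+ T cells (1) and B cells (1) edgeR and DESeq2 called 0, and 0 had an unadjusted p under 0.05. The nearest in glia was Gstm1, at 180 and 281 against 153 and 92.0 CPM, and in plasma cells Gstt2, at 5.17 and 18.7 against 69.0 and 37.7, neither past the threshold.

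Whether the change along the villus itself differed between genotypes was tested as an interaction on the top and bottom sums of the 4 mice. edgeR called 0 of 54 members and 0.0% of 9115 genes, and DESeq2 called 0 members. At an unadjusted p under 0.05 stood 25 genes with a positive and 23 with a negative value, among them 1 member. That member was Ugt1a1 (interaction log2 fold change 2.28, unadjusted p = 0.0442 by edgeR), whose last exons are common to the Ugt1a genes.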

How the data were processed

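The authors deposited raw UMI counts per gene and cell for 4 libraries (10x Chromium Single Cell 3′), made with Cell Ranger 4.0.0 and mm10 according to the submitters' processing notes and the matrix headers. Each library was 1 mouse. Libraries held 15557181 to 72046346 UMIs in 3623 to 7347 barcodes. Here cells with at most 10% mitochondrial UMIs were kept and clustered (scanpy 1.11.5, leidenalg 0.10.2, 15 principal components, resolution 0.5) without the 160 candidate symbols among the variable genes. Clusters were named from fixed marker lists, with a class compared only where a mouse gave at least 10 cells. Counts were summed per mouse and class or zone and tested with edgeR 4.0.16 (quasi-likelihood, filterByExpr, TMM, Benjamini-Hochberg adjustment over all genes tested, threshold 0.05), with the mouse as a block between zones and the landmark genes left out. Cells are not replicates, so no test was run on cells. DESeq2 1.42.0, no filter, a mitochondrial limit of 20%, other zone borders and landmarks, doublet removal, the replicate block and leaving out each mouse were alternatives. The doublet caller marked too few cells to be used, so doublets were kept, and the alternative removed the highest scores. Intervals and floors cover counting error only. The tests were tried on simulated data. In the zone comparison they recovered 71% of log2 changes of 2 and 5% of log2 changes of 1 over 8673 genes. Sequences came from RefSeq GRCm38.p6 and gene positions from GENCODE on GRCm38.

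Named genes were the 3 members per prefix with the highest CPM in enterocytes, the 10 with the lowest p between zones, the 5 with the lowest p between genotypes, the 2 highest in each other class, those at the 20 UMI limit and the partners named with them. Other genes named were chosen after their values were seen. The members and gene lists were chosen with earlier results of these data known.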

Additional observations from a re-analysis of the deposited data

How the results depend on the processing

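The numbers of members called between zones (8 higher at the top, 17 higher at the bottom) rested on single mice and on the zone borders. Leaving out 1 mouse gave 4 to 10 higher at the top, 5 to 27 higher at the bottom and 831 to 4734 genes in all against 3453. Members higher at the bottom numbered 10 with a mitochondrial limit of 20%, 35 with common borders (12 at the top), 41 with clusters as zones and 42 with either of these at a limit of 20% (the last 2 settings were chosen after seeing the data), where all genes called numbered 6019, 6905, 7987 with clusters and 7656 with common borders. Common borders could be filled by 3 mice and clusters by 2 (Control 1 and EC-Foxc-DKO 1). DESeq2 gave 9 and 22 (18.5% and 20.9% of all genes at the top and at the bottom) and no filter 11 and 22 (12.6% and 12.3%).

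Between genotypes, against 0 by edgeR, members called numbered 4 with no filter and 0 to 7 with 1 mouse left out in all enterocytes, 1 by DESeq2, 8 with no filter and 0 to 21 in Bottom enterocytes, 7 with no filter and 0 to 2 in crypt cells, 1 with no filter and 0 to 1 in glia and in the chemokine-led macrophages, 0 to 1 in BECs, and 0 to 3 in the interaction. With 1 mouse left out, the lone mouse is assumed to vary like the others. The highest counts, 7, 21 and 3, were without EC-Foxc-DKO 1, where 0.916%, 9.25% and 0.218% of all genes were called. With no filter the share of all genes was 0.473% in all enterocytes, 1.01% in Bottom enterocytes and 0.642% in crypt cells.

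The direction of members that were not called, or barely called, turned with the setting, and the cause was not tested. Some turned values passed the threshold. With clusters as zones edgeR called Cyp2b10, Cyp2c55, Cyp2d26, Cyp3a25, Cyp4f14 and Sult1b1 higher at the bottom, as it did 38.5% of all genes tested. With common borders it called Cyp2b10 and Cyp2d26 higher at the top, as it did 29.1% of all genes tested. With clusters as zones the log2 fold changes were -0.29 for Cyp27a1, -0.60 for Cyp2b10, -3.45 for Cyp2c55, -0.43 for Cyp2d26, -1.15 for Cyp3a25, -0.82 for Cyp4f14, -0.51 for Sult1b1 and -0.18 for Sult1d1. With clusters and the 20% limit they were -0.24 for Cyp2b10, -2.01 for Cyp2c55, -0.55 for Cyp2d26, -0.34 for Cyp3a25, -0.69 for Cyp4f14 and Sult1b1 and -0.59 for Sult1d1. With common borders and the 20% limit they were -0.42 for Cyp27a1, -0.82 for Cyp2b10, -3.98 for Cyp2c55, -1.11 for Cyp2d26, -0.63 for Cyp3a25, -1.24 for Cyp4f14, -0.21 for Cyp4v3, 0.16 for Gstm5, -0.048 for Gsto1, -1.02 for Sult1b1 and -0.57 for Sult1d1. With common borders they were -0.51 for Cyp2c55, -0.083 for Sult1b1 and -0.13 for Sult1d1, and with the 20% limit -1.79 for Cyp2c55, -0.032 for Cyp2d26, -0.081 for Cyp3a25, -0.46 for Cyp4f14 and -0.16 for Sult1b1. Cyp2c55 was at -0.087 when the members entered the clustering, -0.035 without doublets and -0.18 with other landmarks. Without the mouse as a block (no replicate block) Gstm1 was at 0.24, and 8 and 12 members were called. With 1 mouse left out the range was -1.81 to 1.37 for Cyp2c55, -0.29 to 0.11 for Cyp2j6, -0.028 to 1.16 for Cyp3a25, -0.077 to 0.34 for Sult1b1, -0.17 to 0.17 for Sult1d1, -0.61 to 0.012 for Ugt2b34, -1.14 to 0.35 for Sult1a1 in BECs and -0.99 to 0.18 for Cyp4f18 in the chemokine-led macrophages.

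Replicate numbers 1 and 2 are shared by the genotypes, but nothing says that they pair mice, and correlations of the deviations of same-numbered mice ran from -0.33 in crypt cells to 0.18 in all enterocytes. With the replicate block, edgeR called 0 members in each of the 9 genotype comparisons. At an unadjusted p under 0.05 stood 12 members in all enterocytes, 12 in Bottom enterocytes, 2 in crypt cells, 1 in BECs and 0 in the other 5. Genes at such a p (higher and lower) numbered 182 and 164 of 10266 in all enterocytes and 191 and 142 of 9917 in Bottom enterocytes. They numbered 40 and 43 of 9276 in crypt cells and 76 and 44 of 3487 in BECs. DESeq2 was not run with this block. Of the values for named genes, 48 turned direction, whether called or not. Of the others, 597 kept direction and side of the threshold, 62 lost the call and 56 gained one.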

Other observations

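Cyp1a1, the classical Ahr target, was nearly missing from the kept cells. Over all barcodes it held 727 UMIs, of which 19, 4, 677 and 27 fell in Control 1, Control 2, EC-Foxc-DKO 1 and EC-Foxc-DKO 2, and 84 of the 727 were in cells with at most 10% mitochondrial UMIs. Over the kept enterocytes it was at 0.0908, 0, 2.08 and 0.773 CPM, and it did not pass the filter on low counts. With no filter, and with a mitochondrial limit of 20%, edgeR called it higher in the top zone than in the bottom zone.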
